A study of Mus musculus with 27 samples.

Results

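Gata4 is a zinc-finger transcription factor that binds GATA motifs in DNA and is a core regulator of heart development. GATA factors are described as able to bind sites in closed chromatin and make them accessible. Together with the MADS-box factor Mef2c and the T-box factor Tbx5, Gata4 belongs to the cocktail used to turn cardiac fibroblasts towards a cardiomyocyte-like state. The regions described here were more accessible than in the control after Gata4 alone and stayed near the control after Mef2c or Tbx5 alone, and the question was how accessible they were once Gata4 was given with the other factors.

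The assay was ATAC-seq, in which a transposase inserts adapters into accessible DNA, so that a region's read count measures its openness. The cells were a CD-1 neonatal cardiac fibroblast line immortalised with large T antigen and of alpha-MHC-GFP genotype, infected with retroviruses and taken unsorted at day 2. The groups were named for their viruses: G for Gata4, M for Mef2c, T for Tbx5, then GM, GT, MT and GMT for the combinations, and control for dsRed, a red fluorescent protein. All 7 factor groups also received the Tgfβ inhibitor sb431542 and the Wnt inhibitor xav939, and the control received no chemical. Differences between a factor group and the control therefore hold the factors and the inhibitors together, whereas GM, GT, MT and GMT share the inhibitors. Each of the 8 groups had 3 libraries, described by the submitters as biological replicates without saying what separates them. Because the populations were unsorted, more open cells and more open chromatin per cell cannot be told apart, and cell markers were not used here.

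Levels are CPM, the region's count divided by the library's total over all 30815 regions and multiplied by 1000000. A region was a member if its mean CPM plus 5 in G was at least 2.5 times that in the control, and if the same ratio lay between 0.6 and 1.67 for both M and T. The rule was met by 936 regions (3.04% of those measured). They were 68.5% of the 1366 regions that reached the G threshold. The other 430 were left out because M or T was above the allowed range (277 regions) or below it (158 regions), and some had both. The members were chosen by their levels in G, M, T and the control, so these levels are given as a description only. The tests compare GM, GT, MT and GMT with each other, since the rule used the levels of none of their 12 libraries.

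GMT replicate 1 was the shallowest library (241394 counts in all) and MT replicate 1 the deepest (1704896), and the median total was 661976. A count of 0 allows up to 3 counts, which is 12.4 CPM in GMT replicate 1 and 1.76 CPM in MT replicate 1. GMT replicate 1 had no count in 162 of the 936 members, and its median member had 2 counts. The library labelled GT replicate 1 stood apart from its group. Across all regions tested its Spearman correlations with the G libraries were 0.825 to 0.941, and with the other GT libraries 0.722 and 0.730. Counts and ratios that rest on GT are therefore given with and without it. GMT replicate 1, GM replicate 2 and G replicate 2, each the shallowest of its group, also correlated better on average with another group (MT for the first of these, the control for the others) than with their own.

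By construction the members were low in the control and high in G. The median member had 5.59 CPM in the control and 31.6 CPM in G, and its G level was 3.18 times that of the control on the scale with 5 added. Among single libraries of G, the median member stood at 38.2, 18.1 and 36.9 CPM in replicates 1 to 3, so replicate 2 was low. The member with the greatest ratio was chr18:61657249-61657815 (567 bp, ratio 9.52), with 274, 95.8 and 196 CPM in the G libraries and means of 15.35 CPM in the control, 17.2 in M and 21.7 in T, so the rule does not require a region to be closed without Gata4. GMT had 58.0, 333 and 200 CPM there, of which replicate 1 lay within the 30.4 to 60.7 CPM of MT. Next came chr7:125324618-125324923 (ratio 9.33), with 66.5 CPM in G and 2.67 in the control, and chr1:167039439-167039873 (ratio 9.33), with 68.1 and 2.84 CPM. These were followed by chr11:87816368-87816614 (ratio 9.02), where G replicate 2 had only 2.59 CPM against 79.2 and 126 in the others, and by chr8:109918908-109919113 (ratio 8.92). At the last of these GT had 71.6, 1.70 and 0 CPM, so that its replicate 1 stood alone. The threshold itself separated near-equal regions. Just inside were chr10:51853211-51853570 and chr19:32274798-32275003, both at 2.503, and just outside chr4:120065463-120065726 and chr11:86809082-86809336, both at 2.499.

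The members were spread over the chromosomes. They made up between 1.80% (11 of 611 on chromosome X) and 4.34% (71 of 1637 on chromosome 8) of the regions of each chromosome, apart from chromosome Y with 0 of 5. Of the 936, 44 (4.70%) had another member within 10000 bp, always as 22 separate pairs. The median distance to the next member was 370526 bp. Whether members lay nearer to each other than a random set of regions would was not tested. The next region of any kind lay at a median of 11879 bp, near the 13126.5 bp for all regions. Members had a median width of 259 bp against 234 bp for all regions, and 8.97% had the shortest width of 201 bp against 17.9%.

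In the libraries that the rule did not use, the members were low in MT and higher wherever Gata4 was part of a combination. The median member stood at 5.28, 6.39 and 7.01 CPM in MT replicates 1 to 3. That is within the 4.15 to 7.25 CPM of the control, M and T libraries, which the rule held low. In GM it had 16.7, 9.82 and 20.1 CPM, in GT 33.3, 15.3 and 14.1 CPM, and in GMT 8.29, 11.01 and 12.3 CPM. None of these 9 medians overlapped the 3 MT medians, whereas the spreads over members did overlap. The quartiles ran from 4.14 to 16.6 CPM in GMT replicate 1 and from 2.34 to 11.7 CPM in MT replicate 3. The medians of these libraries, the closest, rest on 2 and 3 counts. The median over all regions, by contrast, was similar in all 4 groups, at 8.48 to 12.3 CPM in GM and GT, 11.1 to 12.8 in MT and 12.2 to 13.2 in GMT. GT replicate 1 had a median member level close to those of G replicates 1 and 3, and the other GT libraries lay within the range of GM.

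**Figure D1:**
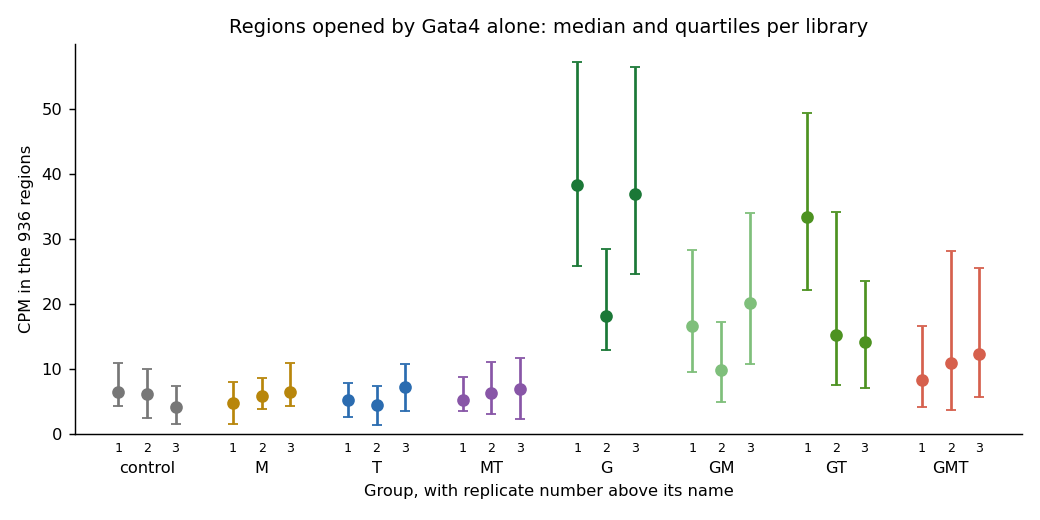
Level of the 936 regions in each of the 24 libraries, in CPM on a linear axis. Points are medians over the regions, bars run from the lower to the upper quartile, and the small digits are replicate numbers. The 9 libraries of GM, GT and GMT have medians from 8.29 to 33.3 CPM and the 3 MT libraries from 5.28 to 7.01 CPM.

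A similar order appeared in the share of each library's counts that fell in the 936 members. That share was 0.813% ± 0.0538 (SD, n = 3) in MT, against 0.729% ± 0.121 in the control. It was 1.62% ± 0.471 in GMT, 2.01% ± 0.603 in GM, 2.64% ± 1.11 in GT and 3.67% ± 1.32 in G. The GT libraries had 3.84%, 2.44% and 1.65%, and without replicate 1 their mean was 2.04%, near that of GM. Differences among GM, GT and GMT were below the largest of their SDs. Over the control with 5 added, the median member was 1.05 times as high in MT, 1.47 times in GMT, 1.88 times in GM and 2.36 times in GT. Without GT replicate 1 the GT value was 1.80. These folds use the control that chose the members, so they carry no test.

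Measured against the 2.5-fold threshold of the rule, 404 members (43.2%) also reached it in GT, 201 (21.5%) in GM, 153 (16.3%) in GMT and 3 (0.321%) in MT. Over all regions the shares were 5.88% in GT, 4.24% in GM, 10.4% in GMT and 7.82% in MT. Without GT replicate 1, 233 members (24.9%) reached it in GT, against 7.13% of all regions. Across the 3 combinations with Gata4, 468 members (50%) reached the threshold in none, against 86.1% of all regions, and 75 (8.01%) in all, against 0.704%. A further 198 (21.2%) reached it in GT alone, against 1.52% of all regions, 48 (5.13%) in GM alone, against 1.78%, and 7 (0.748%) in GMT alone, against 4.82%. When GT replicate 1 was left out, 574 members reached it in none (85.6% of all regions), 61 in all (0.636%), 92 in GT alone (2.00%), 89 in GM alone (1.95%) and 17 in GMT alone (3.81%). The members that reached it in all of these combinations had a median width of 336 bp, and those that reached it in none 229.5 bp. The 3 members that reached it in MT were singled out after their values were seen. They were chr8:18804743-18804970 (31.7, 54.3 and 37.4 CPM in MT, mean 7.93 in the control), chr16:84795292-84795635 (7.04, 22.4 and 28.0 CPM, control mean 2.39) and chr6:88865520-88865767 (32.9, 23.9 and 18.7 CPM, control mean 5.51).

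The 6 comparisons among the combinations were fitted on all 20494 regions that passed a filter on low counts, with edgeR's quasi-likelihood test, and a region is called at a Benjamini-Hochberg adjusted p under 0.05. Of the 936 members, 860 (91.9%) passed the filter, against 66.5% of all regions. The filter and the common spread of this fit also draw on the libraries that chose the members, in which G is high. A filter and fit on the 12 combination libraries alone kept 654 members (69.9%), and gave 6 higher in GMT than in MT (0.0748% of all regions tested), 209 in GM (4.39%) and 385 in GT (6.47%). Counts of called members are given out of 936. Regions are named where they were called, had a mean level at or above that of the median member, and had libraries of the compared groups that did not overlap.

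With Mef2c in both groups, GM and MT differ in having Gata4 or Tbx5. In GM, 277 members (29.6%) were higher than in MT, where 5.47% of all regions tested were. No member was lower by edgeR, none at an unadjusted p under 0.05 and none by DESeq2. Of all regions, 12.0% were called lower by edgeR and 17.6% were lower at an unadjusted p under 0.05. The median member had only 9, 4 and 3 counts in MT replicates 1 to 3, which left little room for a call below MT. How far this accounts for the absence of lower calls, here and in the comparisons below, was not tested. The mean level was higher in GM for 902 members (96.4%, against 51.8% of all regions). The libraries of the groups did not overlap, with GM above, in 495 members (52.9%), against 12.4% of all regions. The first named member was chr9:86505523-86505759, where GM had 52.0, 22.1 and 77.3 CPM and MT 3.52, 3.19 and 4.67 CPM (log2 fold change 3.71 ± 0.69 SE, adjusted p = 0.000365). In this 237 bp region every GM library was above every MT library, and GT ranged from 0 to 39.5 CPM. The control had 8.74, 9.98 and 9.13 CPM there, so the ratio is taken over an MT level below the control. Next were chr4:19545418-19545878 (3.58 ± 0.69, adjusted p = 0.000463) and chr17:66612117-66612438 (3.38 ± 0.52, adjusted p = 4.8e-05). At chr4:19545418-19545878 MT was also below the control, with means of 3.46 and 10.81 CPM. Left-out libraries changed the count to 169 (without GM replicate 1, background 3.77%), 130 (GM replicate 3, 2.30%), 106 (MT replicate 1, 1.86%) and 176 (MT replicate 2, 3.06%), and none of these 3 calls was lost.

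GT and MT share Tbx5 and differ in having Gata4 or Mef2c. Here 518 members (55.3%) were higher in GT, against 8.60% of all regions tested. No member was lower by edgeR, at an unadjusted p under 0.05 or by DESeq2. Of all regions, 11.2% were called lower by edgeR and 17.4% were lower at an unadjusted p under 0.05. The low counts of the members in MT, given above, left little room for such a call. The libraries did not overlap, with GT above, in 579 members (61.9% against 10.7% of all regions) and, with GT below, in 0 (against 13.3%). For the other pair of GT libraries the numbers were 586 (62.6% against 15.4%) and 6 (0.641% against 17.7%). Without the library labelled GT replicate 1 the members higher in GT numbered 266, with a background of 5.35%, and without MT replicate 1 they numbered 244 (3.08%). The mean was higher in GT for 930 members (99.4%, against 50.6% of all regions), and for 861 (92.0%) without GT replicate 1. Among the named members was chr3:129559496-129559839, 344 bp long (4.07 ± 0.59, adjusted p = 2e-05). GT had 97.5, 44.9 and 37.6 CPM there, MT 2.93, 0 and 9.34 CPM, and GM 18.0, 12.3 and 24.7 CPM. The control mean was 8.45 CPM, above the MT mean of 4.09 CPM. GT replicate 1 was the high library, and the other GT libraries were also above all MT and GM libraries. It was followed by chr4:19545418-19545878 (4.05 ± 0.68, adjusted p = 0.000123) and chr15:8657161-8657363 (4.003 ± 0.55, adjusted p = 1.045e-05). At the last of these MT had 1.76, 3.19 and 7.01 CPM, below the 13.1 to 23.7 CPM of the control. The MT mean at chr4:19545418-19545878 was below the control as well, as given above.

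Adding Gata4 to Mef2c plus Tbx5 is measured by GMT against MT. It is the comparison in which the viruses named differ by Gata4 only. Factor levels per cell were not measured here, so a changed dose of the other factors cannot be told apart from the added one. In GMT 48 members (5.13%) were higher, against 0.859% of all regions tested, and 308 (32.9%) had an unadjusted p under 0.05 in that direction, against 9.38% of all regions. None was called lower by edgeR or DESeq2, against 0.151% of all regions by edgeR. At an unadjusted p under 0.05, 3 members (0.321%) were lower, against 5.30% of all regions. The low counts of the members in MT, given above, left little room for a lower call. The mean was higher in GMT for 754 members (80.6%), against 48.7% of all regions. The libraries did not overlap, with GMT above, in 261 members (27.9% against 7.61% of all regions) and, with GMT below, in 17 (1.82% against 7.48%). The 48 called members were wider (median 337.5 bp) than the 936 and had a median of 38.5 CPM in GMT, 7.05 in MT and 53.5 in G.

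The members named for this comparison were chr4:19545418-19545878 (3.54 ± 0.69, adjusted p = 0.0131), chr1:172120604-172120825 (3.35 ± 0.56, adjusted p = 0.0044) and chr17:66612117-66612438 (3.14 ± 0.52, adjusted p = 0.0044). At the first of these the mean was 40.9 CPM in GMT, 3.46 in MT and 10.81 in the control. At chr17:66612117-66612438, 322 bp long, GMT had 24.9, 68.5 and 68.0 CPM, GM 88.5, 27.0 and 83.5 CPM and GT 87.6, 68.7 and 49.4 CPM. MT had 5.87, 7.98 and 4.67 CPM and the control 8.74, 6.24 and 3.32 CPM, so all libraries with Gata4 in a combination were above all of these. At chr1:172120604-172120825, 222 bp long, GMT had 41.4, 50.1 and 35.9 CPM, MT 2.35, 4.79 and 7.01 CPM and GM 26.9, 14.7 and 29.4 CPM. GMT replicate 1 was not the low library there.

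The number called in GMT against MT depended on single libraries. It was 128 without GMT replicate 1 (2.80% of all regions), 91 without GT replicate 1 (1.77%) and 75 without GT replicate 2 (1.51%). It was 21 without MT replicate 3 (0.371%), 4 and 3 without GMT replicates 2 and 3 (0.039% and 0.0244%), 0 without MT replicate 1 (0.00488%) and 0 without MT replicate 2 (0%). At an unadjusted p under 0.05 these last fits had 212 and 276 members higher, against 7.19% and 8.03% of all regions. The fit of the 12 combination libraries alone called 6 (0.0748%). Without MT replicate 1, chr17:66612117-66612438 had a log2 fold change of 3.10 (adjusted p = 0.0934) and chr1:172120604-172120825 one of 2.85 (adjusted p = 0.117). Without MT replicate 2 both had an adjusted p of 0.0594. At chr4:19545418-19545878 the call was also lost without MT replicate 1 (adjusted p = 0.123), MT replicate 2 (0.0848), GMT replicate 2 (0.0505) or GMT replicate 3 (0.0893).

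**Figure D2:**
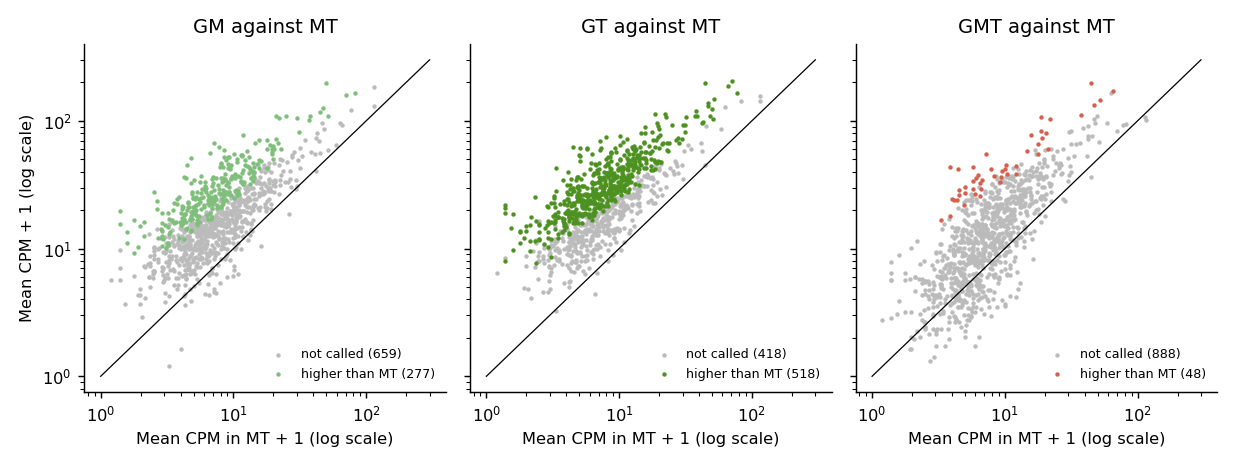
Mean level of each of the 936 regions in GM, GT and GMT (vertical axis) against its mean in MT (horizontal axis), in CPM plus 1 on log scales, with a line where both are equal. Coloured points are regions called higher by edgeR's quasi-likelihood test (277 in GM, 518 in GT, 48 in GMT), and grey points, most of them also above the line, are not called or not tested. Without GT replicate 1, which is included here, 266 were called in GT.

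Taking the 3 combinations with Gata4 together, 158 members (16.9%) had all 9 of their libraries above all 3 MT libraries, and 0 had all of them below. Of all regions, 1.89% were in the first class and 1.96% in the second. With GT replicate 1 left out the members in these classes again numbered 158 and 0, against 1.93% and 2.06% of regions. The low counts of the members in MT left little room for the second class.

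Within the combinations that hold Gata4, GMT was most often the group with the lowest mean. GMT had the lowest mean of the 3 groups in 664 members (70.9%), GM in 229 and GT in 43. With GT replicate 1 left out the numbers were 528 (56.4%) for GMT and 204 each for GM and GT. GT had the highest mean in 659 members (70.4%) with all libraries and in 377 (40.3%) without GT replicate 1, when GM had the highest in 469 (50.1%). GMT thus remained the group most often lowest without that library, at a smaller share, and the order of GM and GT changed. The same counts over all regions were not taken, so these are a description of the members only.

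GMT against GM compares Gata4 plus Mef2c with and without Tbx5, where a changed dose of Gata4 cannot be told apart from the added factor. Of the members, 38 (4.06%) were lower in GMT, against 1.68% of all regions tested, and 8 (0.855%) were higher, against 12.1%. The libraries did not overlap, with GMT below, in 202 members (21.6% against 10.5% of all regions) and, with GMT above, in 13 (1.39% against 12.2%). The median log2 ratio of means with 5 added was -0.38 over the members and -0.05 over all regions. Named first was chr1:88140213-88140419, a region of 207 bp (-2.66 ± 0.77, adjusted p = 0.0177). GMT had 4.14, 2.45 and 6.61 CPM there, below every GM library (19.2, 17.2 and 55.6 CPM) and overlapping MT (2.93, 11.2 and 9.34 CPM). It was followed by chr9:86505523-86505759 (-2.12 ± 0.61, adjusted p = 0.0172), where GMT had 12.4, 13.5 and 9.44 CPM, and by chr4:115502432-115502665 (-2.09 ± 0.61, adjusted p = 0.0192). The calls of all 3 were lost without GMT replicate 2 (adjusted p = 0.117, 0.0596 and 0.11) and without GM replicate 3 (0.157, 0.111 and 0.13), and those of the last pair without GMT replicate 3 (0.103 and 0.0803). The number lower was 6 without GMT replicate 2 (0.268% of all regions), 14 without GMT replicate 3 (0.547%), 6 without GM replicate 3 (0.298%), 59 without GT replicate 1 (2.45%) and 14 in the fit of the 12 combination libraries (1.14%).

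A few members went the other way and were higher in GMT than in GM. At chr9:24692826-24693382, 557 bp long, GMT had 33.1, 114 and 98.2 CPM and GM 32.7, 17.2 and 20.1 CPM (1.82 ± 0.43, adjusted p = 0.00411). GT had 48.1, 95.8 and 40.0 CPM and G 32.9, 20.7 and 36.9 CPM, so the libraries with both Gata4 and Tbx5 were the high ones apart from GMT replicate 1. At chr7:152245587-152245834, 248 bp long, GM had 5.13, 4.91 and 6.18 CPM, the same range as MT (6.45, 6.39 and 4.67 CPM). GMT had 8.29, 30.6 and 17.9 CPM there (1.93 ± 0.57, adjusted p = 0.0204), and this call was lost without GMT replicate 2 (0.206), without GM replicate 1 (0.103), without GM replicate 3 (0.0589) and with loess offsets (0.0618). The other one was chr2:157640250-157640639 (1.86 ± 0.49, adjusted p = 0.00986, and 0.118 without GMT replicate 2). The members higher in GMT numbered 24 without GMT replicate 1 (14.4% of all regions), and 1, 4, 5, 4 and 4 without GMT replicates 2 and 3 and GM replicates 1, 2 and 3 (5.96%, 7.41%, 6.94%, 10.03% and 7.11%).

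GMT against GT compares Gata4 plus Tbx5 with and without Mef2c, and has the same limit on dose. In this comparison 72 members (7.69%) were lower in GMT, against 1.29% of all regions tested. None was called higher by edgeR or DESeq2, whereas 5.66% of all regions were by edgeR. At an unadjusted p under 0.05, 1 member (0.107%) was higher, against 14.2% of all regions. With GT replicate 1 left out 9 members were lower, with a background of 0.254%. The number was 12 without GMT replicate 2 (0.190%), 11 without GMT replicate 3 (0.176%), 110 without GT replicate 2 (1.81%), 120 without GT replicate 3 (1.69%) and 23 in the fit of the 12 combination libraries (0.476%). GMT had the lower mean in 844 members (90.2%), against 51.0% of all regions. Without GT replicate 1 the median log2 ratio moved from -0.68 to -0.29, where all regions had -0.01 and 0.02. The libraries did not overlap, with GMT below, in 213 members (22.8% against 6.96% of all regions) and, with GMT above, in 1 (against 9.48%). For GT replicates 2 and 3 the numbers were 223 (23.8% against 9.91%) and 30 (3.21% against 13.98%). Named first was chr2:84876350-84876555 (-2.98 ± 0.67, adjusted p = 0.00552), with 0, 1.22 and 8.50 CPM in GMT and 48.1, 33.9 and 23.5 CPM in GT. The groups did not overlap, and the call was lost without GMT replicate 2 (0.0553). The next were chr1:88140213-88140419 (-2.62 ± 0.77, adjusted p = 0.0325) and chr2:147763153-147763550 (-2.62 ± 0.59, adjusted p = 0.00538). Without GT replicate 1 their adjusted p-values were 0.191 and 0.0653, and without GMT replicate 3 they were 0.0967 and 0.0668. The first of them was also lost without GMT replicate 2 (0.156).

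GM and GT differ in whether Mef2c or Tbx5 stands beside Gata4. With all libraries 42 members (4.49%) were lower in GM, against 7.16% of all regions tested, and 2 (0.214%) were higher, against 6.42%. The libraries did not overlap, with GM below, in 113 members (12.1% against 7.66% of all regions) and, with GM above, in 7 (0.748% against 10.2%). Against GT replicates 2 and 3 the numbers were 123 (13.1% against 15.97%) and 150 (16.03% against 18.0%). When GT replicate 1 was left out, 40 were lower and 25 higher, with backgrounds of 11.4% and 7.58%. The median log2 ratio of GM over GT was -0.34 with that library and 0.07 without it. At chr7:152245587-152245834 GT had 34.6, 56.8 and 28.2 CPM and GM the values near those of MT given above (-2.93 ± 0.54, adjusted p = 0.000767). G alone had 48.9, 20.7 and 79.0 CPM in this region, so GM was below every G and GT library. At chr8:63904986-63905285, 300 bp long, GT had 102, 84.8 and 77.7 CPM and GM 25.7, 9.82 and 24.7 CPM (-2.07 ± 0.46, adjusted p = 0.00307). GMT had 24.9, 115 and 87.8 CPM at this place, where replicate 1 rests on 6 counts. Its T ratio of 1.67 was at the upper limit of the rule, with 28.8, 5.91 and 12.7 CPM in T. The other named member was chr2:103437538-103437790 (-2.25 ± 0.56, adjusted p = 0.0071, and 0.165 without GT replicate 2).

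The 2 members higher in GM than in GT lie outside the naming rule and were picked after their values were seen. At chr15:66673907-66674337 GM had 139, 49.1 and 136 CPM and GT 49.4, 11.9 and 14.1 CPM (2.09 ± 0.48, adjusted p = 0.00433). The groups overlapped through GM replicate 2 and GT replicate 1, and the call was lost without GT replicate 2 (0.0647). At chr4:43308314-43308514 the values were 19.3, 17.2 and 21.6 CPM and 7.41, 0.848 and 2.35 CPM (2.42 ± 0.70, adjusted p = 0.018), on 6, 1 and 1 counts in GT. Its call was lost without GT replicate 2 (0.176), GT replicate 3 (0.0504), GM replicate 1 (0.0603) or GM replicate 3 (0.0539). The number lower in GM was 18, 15 and 25 without GM replicates 1, 2 and 3 (3.07%, 5.75% and 3.85% of all regions), and 5 and 64 without GT replicates 2 and 3 (0.449% and 5.79%). The number higher was 1, 7 and 1 without GM replicates 1, 2 and 3 (3.64%, 5.68% and 4.27%), and 0 and 1 without GT replicates 2 and 3 (1.58% and 5.39%).

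The counts were also taken without the libraries that stood apart. Without GT replicate 1 the members higher than in MT numbered 91 in GMT (background 1.77%), 326 in GM (6.67%) and 266 in GT, and 0 were lower in each, where 0.429%, 13.5% and 7.91% of all regions were. GMT was then higher than GM in 11 members (14.0% of all regions) and lower in 59 (2.45%), and higher than GT in 0 (3.23%). A fit without GT replicate 1, GM replicate 2 and GMT replicate 1 was added after the data were seen. It gave 193 members higher in GMT than in MT (4.63% of all regions), 438 in GM (8.97%) and 326 in GT (7.09%). None was lower in GMT, GM or GT, where 1.55%, 13.3% and 8.69% of all regions were. These zeros have the same limit of low counts in MT. In GM against GT 52 were higher (8.41%) and 33 lower (11.6%), in GMT against GM 12 were higher (13.3%) and 102 lower (3.81%), and in GMT against GT 3 were higher (4.74%) and 15 lower (0.995%).

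**Figure D3:**
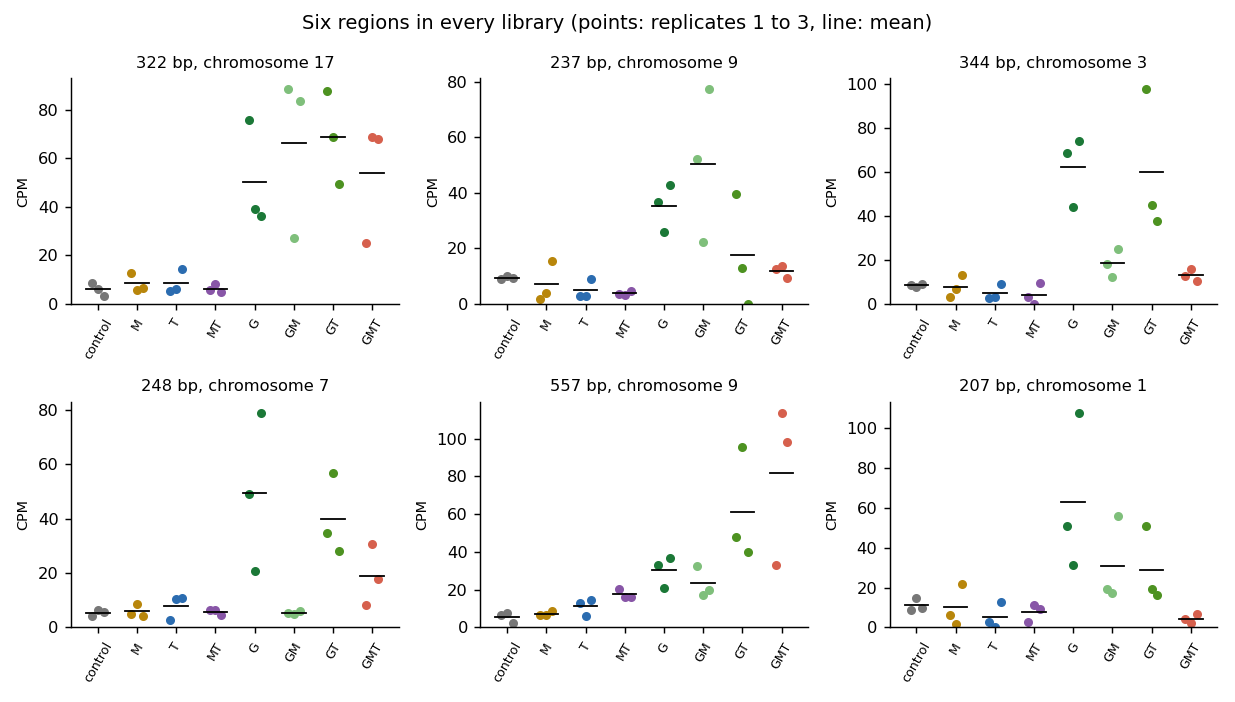
Levels of 6 regions in all 24 libraries, in CPM on linear axes that start at 0. Points are replicates 1 to 3 from left to right and lines are group means. All libraries with Gata4 stand above those without it in the 322 bp region of chromosome 17, while GM is at the MT level in the 248 bp region of chromosome 7 and GMT overlaps MT in the 207 bp region of chromosome 1.

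**Figure D4:**
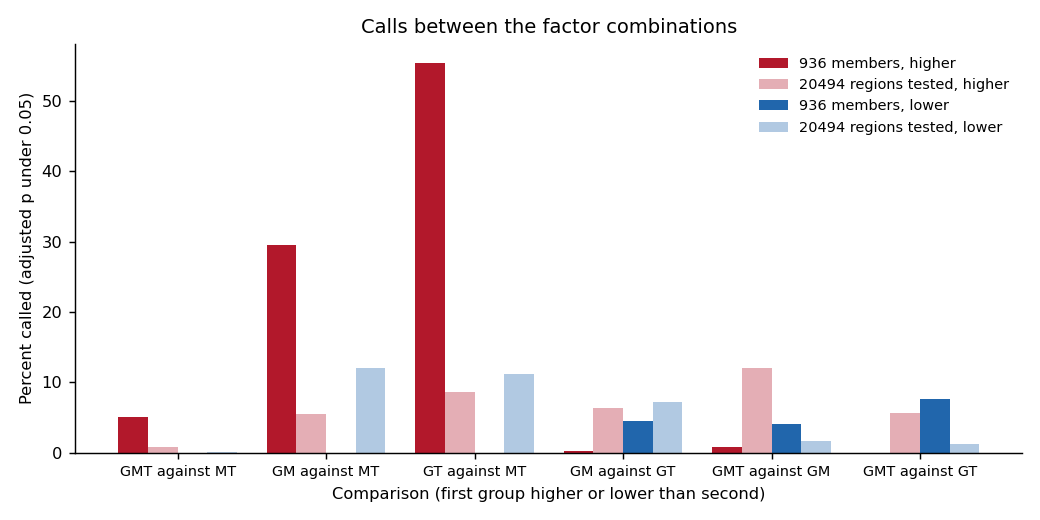
Percent of the 936 regions (dark bars) and of all 20494 regions tested (pale bars) called higher or lower in the first group than in the second, in 6 comparisons by edgeR's quasi-likelihood test at an adjusted p under 0.05. The members called higher than in MT were 5.13% in GMT, 29.6% in GM and 55.3% in GT. Among combinations with Gata4 the dark bars for falls reach at most 7.69%, in GMT against GT. Without GT replicate 1, which is included here, 28.4% were higher in GT than in MT, and 0.962% were lower in GMT than in GT.

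Wider members had higher levels in all 4 combination groups. The 447 members of 201 to 250 bp had a median of 4.82 CPM in MT, 12.7 in GM, 17.4 in GT and 7.63 in GMT. The 222 members of 351 bp and more had 8.90, 23.1, 32.0 and 20.2 CPM. GMT thus stood nearer to MT in the narrow members than in the wide ones, while levels and counts rose with width as well, and the part of counting depth in this was not tested.

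The same rule with another factor in the place of Gata4 chose 1172 regions for Mef2c and 1605 for Tbx5. For each list, the comparison that adds its own factor to the other pair can be set beside that of Gata4. Adding Mef2c to GT gave 341 of 1172 (29.1%) higher, against 5.66% of all regions, and without GT replicate 1 234 (20.0%), against 3.23%. Adding Tbx5 to GM gave 1009 of 1605 (62.9%) higher, against 12.1%. For Gata4 added to MT the corresponding values were 5.13% and 0.859%. None of the 3 lists had a region called lower in its comparison, the Mef2c list without GT replicate 1 included. The second group of each comparison was low (medians of 6.05, 5.10 and 6.65 CPM for Gata4, Mef2c and Tbx5). This left little room for a lower call. The median log2 ratio with 5 added was 0.51 for the Gata4 list, 0.82 for the Mef2c list (0.86 without GT replicate 1) and 1.38 for the Tbx5 list. The comparisons rest on different libraries and backgrounds, and the differences between lists were not tested.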

How the data were processed

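ATAC-seq was analysed in 24 libraries, 3 in each of 8 groups. The 3 labelled samples of dsRed cells with inhibitors were not analysed here. The values are raw counts, one per region and library, that the authors deposited and made with featureCounts, per the submitters' processing notes, which also name Bowtie2, Picard and mm9. The way the regions were defined and the counting of reads or of fragments are not given in the sources used here. Aliquots of 50000 cells and 12 PCR cycles were used, per the labels' protocols.

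Counts were fitted in R 4.3.3 with edgeR 4.0.16 (filterByExpr with a minimum count of 10 and total of 15, TMM scaling, quasi-likelihood test, 8 groups together), and p-values were adjusted over the 20494 regions tested in each comparison. DESeq2 1.42.0 was an alternative. The test was tried on simulated data. The SE is the log2 fold change divided by the square root of F. The members, lists, comparisons and naming rule were chosen with earlier results of these data known. Regions named are the 5 with the greatest G ratio, 2 on each side of the threshold and, per comparison, up to 3 called members per direction whose mean level reached that of the median member and whose libraries did not overlap. Other alternatives were RLE, total-count and loess scaling (span 0.3), other filters, the replicate number as a block, left-out libraries and other versions of the rule. The limit of 3 counts covers counting error only. The gene and promoter tables at hand are of GRCm38, so no gene, sequence or motif was assigned to the mm9 regions. The p-values reflect only the spread among these libraries, which may be technical.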

Additional observations from a re-analysis of the deposited data

How the results depend on the processing

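No member was called lower in GM, GT or GMT than in MT under any scaling, filter, test or left-out library that was run. The low counts of the members in MT left little room for such calls. None of the 551 log2 fold changes of named regions changed sign, while 65 lost their call. Most of these regions were picked for large changes between libraries that did not overlap. A change of sign was therefore unlikely from the start, and its absence is no test of the result. The 12 combination libraries alone gave 6 members higher in GMT than in MT (0.0748% of all regions). They gave 26 lower in GM than in GT (4.86%). In GMT, 5 were higher (10.2%) and 14 lower (1.14%) than in GM, and 23 lower (0.476%) than in GT. The stricter filter gave 1 member higher in GM than in GT (7.04% of all regions). It gave 21 and 42 lower in GMT than in GM and GT (2.12% and 1.41%). Members higher in GMT than in GM numbered 5 with DESeq2 (10.1%), 4 with loess offsets (9.36%) and 4 with no filter (6.60%). Members lower in GMT than in GT numbered 122 with loess offsets (2.13%).

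The rule with 2 added in place of 5 chose 1158 regions, 682 of them shared, with 24 lower in GMT than in GM and 1 higher in GMT than in GT. TMM-scaled CPM chose 904 regions, 891 of them shared. Chosen after the data were examined, the rule without G replicate 2 gave 1248 regions, 903 of them shared, with 4 higher in GM than in GT and 15 higher in GMT than in GM. A fit without GT replicate 1, GM replicate 2 and GMT replicate 1, also added later, gave 193, 438 and 326 members higher in GMT, GM and GT than in MT. It gave 52 higher in GM than in GT, 102 lower in GMT than in GM, and 3 higher and 15 lower in GMT than in GT.

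With 1 library or 1 replicate number left out, members higher than in MT ran from 0 to 128 in GMT, 51 to 326 in GM and 114 to 597 in GT. With all replicates of 1 number left out, GM had 70 (number 1, background 1.35%) and 51 (number 3, 1.23%) higher than MT. GT had 114 (number 1, 2.20%) and 343 (number 2, 4.05%), and GMT 0 (number 2, 0%) and 1 (number 3, 0.00976%). GMT then had 45 (number 1, 4.31%), 9 (number 2, 0.234%) and 0 (number 3, 0.00488%) lower than GM. It had 8, 3 and 4 lower than GT (numbers 1, 2 and 3), against 0.820%, 0.0732% and 0.0586% of all regions. With number 1 left out, 4.81% of members were lower than in GM and 0.855% lower than in GT. These shares were near those of all regions. Without MT replicate 1 GM had 106 and GT 244 higher than MT, and without GT replicate 1 GMT had 9 lower than GT. With 1 library or number left out, calls in GM against GT ran from 0 to 25 higher and 1 to 64 lower, in GMT against GM from 0 to 30 higher and 0 to 59 lower, and in GMT against GT from 0 to 1 higher and 3 to 120 lower. Where a library with many counts is left out, fewer counts remain, and the cause of these shifts was not tested. No consistent pairing of the libraries by replicate number was found, which does not show that there is none. Deviations of same-numbered libraries correlated above 0.1 in 5 of 18 pairs (-0.44 to 0.48), and 2 of 12 libraries correlated best with their own number. The fit with the replicate block gave 48 members higher in GMT than in MT (0.849% of all regions), 272 in GM (5.31%) and 529 in GT (8.58%). In simulated data for GMT against MT, 25 of 50 regions raised 4-fold and 21 of 50 lowered 4-fold were called. Of those changed 2-fold, 0 of 50 raised and 1 of 50 lowered were called, so 2-fold changes were mostly not detectable at these depths. There were also 5 false calls. The changed regions were drawn from all regions tested, so these rates are not those of the members.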
